A study of Mus musculus with 10 samples.

Results

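The genes described here mark the 2-cell-like state of mouse embryonic stem (ES) cells or help to bring it about. They were chosen by name as Zscan4c, Zscan4d, Zscan4f, Zfp352, Tcstv1 and Tcstv3, which are markers of the state, and Dppa2, Dppa4 and Dppa3, which are maternal-effect or activating factors. All 9 were found by symbol among the 30677 genes of the count table. The study asked what inhibition of Kat2a (also called Gcn5), a histone acetyltransferase that acetylates lysine 9 of histone H3, does to gene expression in ES cells. TNGA cells, a mouse ES cell line in which green fluorescent protein is expressed from 1 Nanog allele, were kept in serum and LIF and received either vehicle alone (DMSO) or the Kat2a inhibitor MB-3 at 100 μM for 48 hours, with DMSO at 0.1% of the volume in every culture, so that the vehicle was present in both groups. RNA-seq of polyadenylated RNA gave 3 libraries per group, lettered A, B and C, and H3K9ac ChIP-seq gave 1 peak list per treatment. All libraries came from 1 cell line. The libraries held 46863700 to 51137896 counts in DMSO and 42270312 to 49334434 in MB-3. Levels are given as CPM, the counts of a gene scaled to a common library size, on library sizes normalized by the trimmed mean of M-values (TMM), on which 1 CPM stood for 42.88 to 50.16 counts.

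A small, changing fraction of ES cells in culture passes through a state that resembles the 2-cell embryo, when the zygotic genome is first switched on. In those cells the transcription factor Dux, the Zscan4 proteins, Zfp352, the Tcstv proteins and transcripts driven by MERVL retroviral repeats appear together. Dppa2 and Dppa4 form a DNA-binding pair that is present throughout pluripotent cultures and activates Dux, while Dppa3 (Stella) protects DNA methylation in the early embryo and is also seen in part of the cells of a pluripotent culture. Zscan4 proteins, with a SCAN domain and zinc fingers, help to maintain telomeres and genome stability in ES cells. Each library averaged over its culture, so fewer cells of a type and less RNA per cell cannot be told apart.

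The Zscan4 genes form a tandem cluster on mouse chromosome 7, and their sequences set what the counts can resolve. In GRCm38 coordinates, Zscan4c lies at chr7:11005745-11010547 on the plus strand, Zscan4d at chr7:11161374-11166159 on the minus strand and Zscan4f at chr7:11397915-11402318 on the plus strand. The promoters are shown because the 3 copies share them almost base for base. Each window runs from 150 bases before to 24 bases after the first base of the letters TATAAA in the RefSeq promoter of the gene (GRCm38.p6), 5′ to 3′ on the gene's strand, and capitals mark the 7 positions at which the 3 copies are not all alike. Zscan4c is chr7:11005541-11005714, Zscan4d is chr7:11166190-11166363 and Zscan4f is chr7:11397734-11397907.
Zscan4c: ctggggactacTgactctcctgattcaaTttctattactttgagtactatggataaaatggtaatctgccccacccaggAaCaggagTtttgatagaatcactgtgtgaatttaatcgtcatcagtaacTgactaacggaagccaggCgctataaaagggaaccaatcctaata
Zscan4d: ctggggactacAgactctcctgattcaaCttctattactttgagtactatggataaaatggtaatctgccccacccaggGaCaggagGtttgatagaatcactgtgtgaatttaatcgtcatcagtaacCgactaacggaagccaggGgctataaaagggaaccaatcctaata
Zscan4f: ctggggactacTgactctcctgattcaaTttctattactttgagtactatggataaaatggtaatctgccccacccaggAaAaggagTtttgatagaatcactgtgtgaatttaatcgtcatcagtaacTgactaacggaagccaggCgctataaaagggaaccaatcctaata
Zscan4c and Zscan4f were identical at 173 of the 174 bases (99.4%), Zscan4c and Zscan4d at 168 (96.6%), and Zscan4d and Zscan4f at 167 (96.0%). The letters TATAAA on the gene's strand are found in 2733 of 32851 RefSeq promoters of 300 bases (8.32%), and on either strand in 4473 (13.6%). Of the 9 genes, 4 had an entry among these promoters, the other one being Zfp352.

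The coding sequence is as close. The first 100 coding bases are shown from the GRCm38 genome because a sequencing read from this stretch cannot be given to Zscan4c rather than Zscan4f. They lie at chr7:11006556-11006655 on the plus strand for Zscan4c, at chr7:11165249-11165348 on the minus strand for Zscan4d and at chr7:11398749-11398848 on the plus strand for Zscan4f, and capitals mark the 3 positions at which Zscan4d differs from the others.
Zscan4c: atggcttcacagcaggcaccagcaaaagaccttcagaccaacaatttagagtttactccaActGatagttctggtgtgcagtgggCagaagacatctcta
Zscan4d: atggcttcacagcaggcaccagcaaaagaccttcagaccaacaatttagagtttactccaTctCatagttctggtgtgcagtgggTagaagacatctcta
Zscan4f: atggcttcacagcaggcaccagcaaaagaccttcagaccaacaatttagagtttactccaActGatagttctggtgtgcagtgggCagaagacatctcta
Zscan4c and Zscan4f were identical over all 100 bases, and Zscan4d shared 97 of them with each.

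To see how far each gene can be counted apart, every 50-base window inside an exon was looked up on both strands of the GRCm38 chromosomes. Only 2.9% of the windows of Zscan4f were found once, against 15.4% for Zscan4c and 48.7% for Zscan4d. The other Zscan4 rows of the count table ranged from 4.8% for Zscan4-ps2 to 50.2% for Zscan4-ps1. Tcstv1 (58.9% unique) and Tcstv3 (65.5%), which lie in a cluster on chromosome 13 at chr13:119893388-119894785 and chr13:120316878-120318178, were less repeated, and Zfp352, a gene with 2 annotated exons at chr4:90218820-90225702, was 91.0% unique. The Dppa genes have processed copies elsewhere in the genome. Of the windows of Dppa2 62.4% were unique and 20.6% were also found in Gm9788, a processed pseudogene at chr19:41459813-41460718, which is itself 29.6% unique and shares 50.3% of its windows with a further row, Gm8023. Of the windows of Dppa4 55.6% were unique and 21.5% were also found in Gm14058, a processed pseudogene at chr2:122214620-122215354, and of Dppa3 72.4% were unique and 18.2% were found in Dppa3-ps on chromosome X. How the authors' aligner and counter placed reads that match several sites is not given in the sources used here, so the rows of single copies are uncertain and their sums are given beside them.

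**Figure D1:**
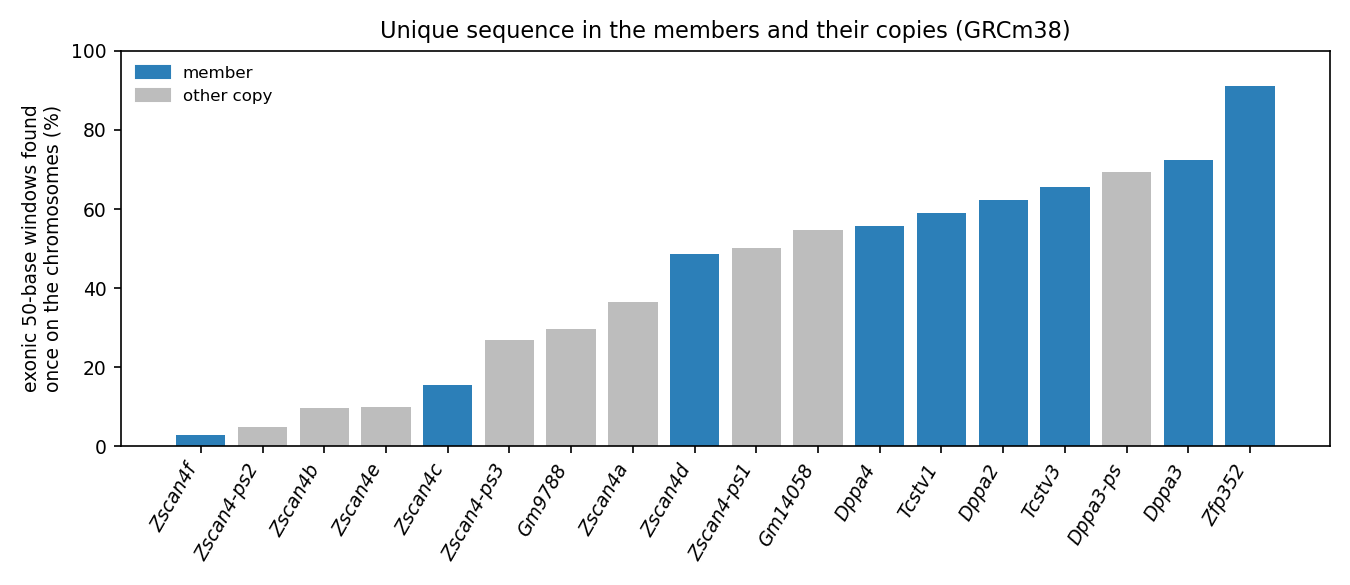
Share of exonic 50-base windows of each gene that occur once on the GRCm38 chromosomes, in percent, for the 9 members (blue) and for the other Zscan4 rows and the processed copies of the Dppa genes (grey). Zscan4f has the lowest share, 2.9%, and Zfp352 the highest, 91.0%.

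The levels of the 9 genes fell into an abundant and a rare group. Dppa4, Dppa2 and Dppa3 were present at 14.8 to 65.2 CPM in the 6 libraries, while none of the other 6 exceeded 1.17 CPM in any library. Per kb of exon, Dppa4 was the most abundant in DMSO at 35.0 ± 3.02 CPM per kb (SD, n = 3), followed by Dppa2 at 19.8 ± 2.33 and Dppa3 at 18.5 ± 1.96, the last 2 lying within each other's spread. For scale, the pluripotency factors Pou5f1 (Oct4) and Nanog stood at 299 ± 15.7 and 118 ± 4.08 CPM per kb. Zscan4d followed at 0.364 ± 0.155, then Tcstv1 at 0.0973 ± 0.0419, Zscan4f at 0.0837 ± 0.0157, Zscan4c at 0.0573 ± 0.0382, Zfp352 at 0.042 ± 0.00917 and Tcstv3 at 0.026 ± 0.0256 CPM per kb. From Tcstv1 to Tcstv3 the ranges of mean ± SD of neighbours in that order overlapped, and Zscan4d stood above Tcstv1 beyond the SD of either. The order among the Zscan4 copies is uncertain, since 48.7% of the windows of Zscan4d were unique, against 15.4% for Zscan4c and 2.9% for Zscan4f. The markers of ES cells Pou5f1, Nanog, Sox2 and Zfp42 (Rex1) were at 242 CPM or more in all 6 libraries, as a culture labelled as ES cells would hold. In MB-3 the order was the same for the 3 Dppa genes, at 38.0 ± 1.26 CPM per kb for Dppa4, 22.4 ± 1.00 for Dppa2 and 18.8 ± 2.74 for Dppa3.

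**Figure D2:**
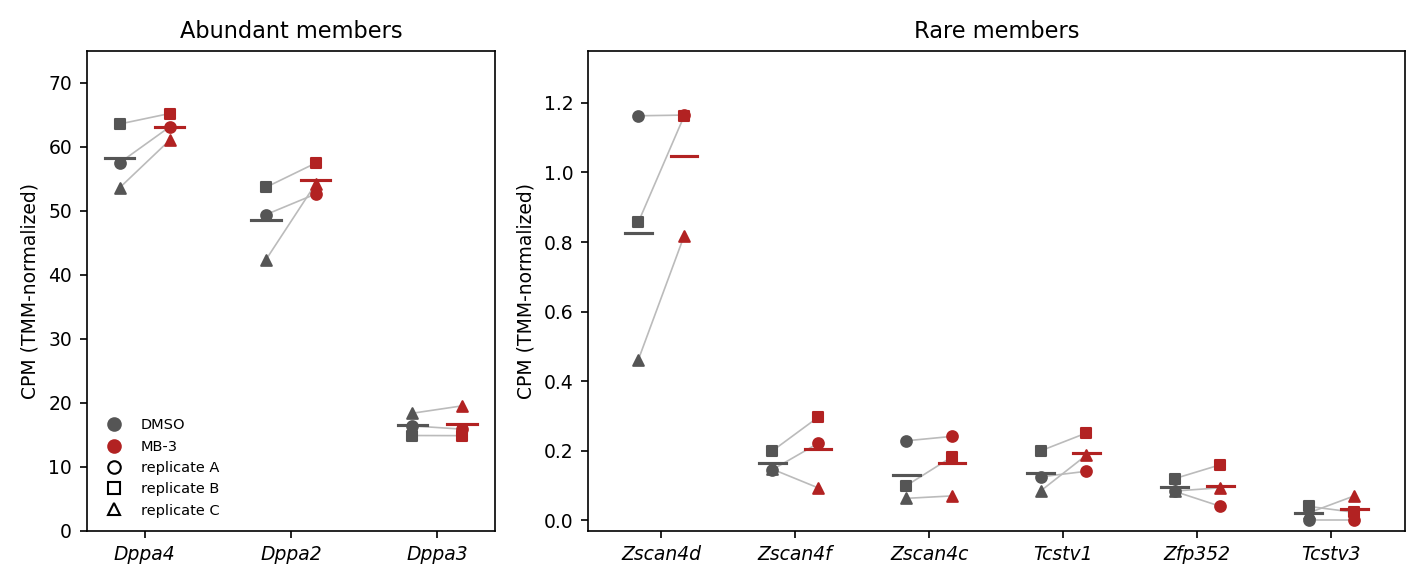
CPM of the 9 members in the 6 libraries, DMSO in grey and MB-3 in red, with the replicate letter as the symbol, a thin line joining the 2 libraries of a letter and a bar at the mean of the 3 libraries. The abundant members (left) run from 14.8 CPM for Dppa3 to 65.2 CPM for Dppa4, the rare ones (right) stay at or under 1.17 CPM, and the DMSO and MB-3 libraries overlap for all 9.

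None of the 9 genes was differentially expressed after MB-3 in the edgeR quasi-likelihood test (adjusted p threshold 0.05, Benjamini-Hochberg over all genes). The filter on low counts left 4 of the 9 (Zscan4d, Dppa2, Dppa4 and Dppa3) among 20027 genes tested, so 0 of 4 were called, where 0.205% of all genes tested were called. DESeq2 and limma-voom also called 0, and 1 of the 4, Dppa2, had an unadjusted p under 0.05, as did 10.9% of all genes tested. The median log2 fold change of the 4 was 0.15 and all 4 were above 0. Over all genes tested the median was 0.00 and 49.7% were above 0. The DMSO and MB-3 libraries overlapped for all 9 members. Of genes tested, 15.6% had groups that did not overlap, a share that does not cover the members below the filter. Libraries with the same letter deviated together, so the letter was also fitted as a block, and with it 1 of the 4 members, again Dppa2, was called higher, where 7.12% of all genes tested were called and 3.22% were called higher. P-values measure the spread between these cultures of 1 line.

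Dppa2 (chr16:48303908-48319723, plus strand), the partner of Dppa4, had the smallest p-value of the 4 tested. It stood at 49.4, 53.7 and 42.4 CPM in DMSO A, B and C and at 52.6, 57.5 and 54.2 CPM in MB-3 A, B and C. DMSO C was the lowest library, DMSO B lay among the MB-3 libraries, and within each letter the MB-3 library was the higher. How many of all genes were higher in MB-3 within every letter was not counted, here or for the genes and sums below. The DMSO mean was 48.5 ± 5.71 CPM and that of MB-3 54.8 ± 2.46 CPM (SD, n = 3 each). The log2 fold change was 0.18 (SE 0.08, 95% interval 0.00 to 0.35, edgeR adjusted p = 0.447). With the letter as a block the log2 fold change was 0.18 (SE 0.06, 95% interval 0.07 to 0.29, edgeR adjusted p = 0.0397). That call was kept without letter A in both groups (log2 fold change 0.22, edgeR adjusted p = 0.0329) and lost without letter B (0.22, 0.0672) or letter C (0.10, 0.466).

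Dppa4 (chr16:48283733-48294237, plus strand) lies next to Dppa2 on chromosome 16. It measured 57.5, 63.6 and 53.6 CPM in DMSO A, B and C and 63.1, 65.2 and 61.0 CPM in MB-3 A, B and C. As for Dppa2, the MB-3 library was the higher of each letter, and DMSO B lay within the range of the MB-3 libraries. The log2 fold change was 0.12 (SE 0.07, 95% interval -0.03 to 0.26, edgeR adjusted p = 0.568), and the adjusted p was 0.168 with the letter as a block.

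Dppa3 (chr6:122626410-122630272, plus strand) was at 16.4, 14.9 and 18.4 CPM in DMSO and at 15.9, 14.8 and 19.5 CPM in MB-3, in the order A, B, C. The libraries followed their letters more than their treatment, with C highest and B lowest in both groups. Its log2 fold change was 0.02 (SE 0.11, 95% interval -0.21 to 0.25, edgeR adjusted p = 0.968). Leaving out DMSO B or MB-3 C turned the sign, to -0.05 and -0.11.

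Of the processed copies of the Dppa genes, Gm14058 and Dppa3-ps held more counts than their parents and Gm9788 held fewer than Dppa2. Gm14058 had 78.3, 85.4 and 70.9 CPM in DMSO and 91.9, 95.1 and 86.7 CPM in MB-3, each above Dppa4 in the same library. Gm9788 had 24.9, 23.6 and 19.97 CPM in DMSO and 27.6, 30.9 and 26.03 CPM in MB-3. For both copies the lowest MB-3 library exceeded the highest DMSO library, as for 8.22% of genes tested, which did not hold for Dppa4 or Dppa2. Neither was called in edgeR with treatment as the only term (log2 fold change 0.22, adjusted p = 0.259 for Gm14058, and 0.30, adjusted p = 0.23 for Gm9788). Both were called higher with the letter as a block (edgeR adjusted p = 0.00223 for Gm14058 and 0.00126 for Gm9788). Dppa3-ps, at 25.0, 23.8 and 26.3 CPM in DMSO and 28.4, 26.1 and 29.9 CPM in MB-3, overlapped between groups and was called in neither fit (log2 fold change 0.17, edgeR adjusted p = 0.416, and 0.0703 with the block). On the genome Dppa3-ps overlaps Rhox3g on the same strand, so its row and its sum with Dppa3 are uncertain for that reason.

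These copies lack introns, and the named aligner, Bowtie, places a read without splitting it over an intron. In the spliced transcript of Dppa2, 343 of 2398 windows of 50 bases crossed an exon junction, and 225 of those (65.6%) were present unbroken in Gm9788. For Dppa4 the figures were 83 of 292 junction windows (28.4%) in Gm14058, and for Dppa3 15 of 134 (11.2%) in Dppa3-ps. What part of the counts at the copies came from the parent genes was not tested. The sum of Dppa2 and Gm9788 had a log2 fold change of 0.22 (edgeR adjusted p = 0.315) and was called higher with the block (0.00487), a call that was lost without letter C in both groups (log2 fold change 0.15, adjusted p = 0.0999). With treatment as the only term and DMSO C left out, the log2 fold change of this sum was 0.13. The sum of Dppa4 and Gm14058 had a log2 fold change of 0.18 (edgeR adjusted p = 0.349) and was called higher with the block (0.00983), but not without letter A (log2 fold change 0.17, adjusted p = 0.0662) or letter C (0.15, 0.0734) in both groups. Its log2 fold change was 0.12 without DMSO C in the fit with treatment alone. The sum of Dppa3 and Dppa3-ps was called in neither fit (log2 fold change 0.11, edgeR adjusted p = 0.644, and 0.231 with the block). The row of Gm9788 may hold reads of Gm8023 as well as of Dppa2, so its sum with Dppa2 is uncertain. These sums were chosen after the rows of the copies had been seen.

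Among the Zscan4 members, Zscan4d, the one with the most unique sequence, held 265 of the 359 counts in the 6 libraries (73.8%). Its counts were 56, 43 and 22 in DMSO A, B and C and 58, 51 and 35 in MB-3 A, B and C, or 1.16, 0.857 and 0.462 CPM against 1.17, 1.16 and 0.816 CPM. Letter C was the lowest of both groups, and DMSO A was level with the highest MB-3 libraries. The log2 fold change of Zscan4d was 0.34 (SE 0.30, 95% interval -0.31 to 1.00, edgeR adjusted p = 0.722, and 0.438 with the block). It was 0.06 without DMSO C and 0.66 without DMSO A. Zscan4c had 11, 5 and 3 counts in DMSO and 12, 8 and 3 in MB-3, under 10 counts in 4 of the 6 libraries. Zscan4f had 7, 10 and 7 counts in DMSO and 11, 13 and 4 in MB-3, under 10 counts in 3 of the 6. Both were below the filter on low counts, and how large a change in either could be detected at this depth was not tested.

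Summed over Zscan4c, Zscan4d and Zscan4f, the counts were 74, 58 and 32 in DMSO and 81, 72 and 42 in MB-3. In CPM the sum was 1.54, 1.16 and 0.671 in DMSO and 1.63, 1.64 and 0.98 in MB-3. The MB-3 library was the higher one in 3 of 3 letters, but DMSO A and B exceeded MB-3 C, so the groups overlapped. The log2 fold change of the sum was 0.34 (SE 0.29, 95% interval -0.29 to 0.96, edgeR adjusted p = 0.71, and 0.375 with the block). Without DMSO C the log2 fold change fell to 0.08, and over all libraries left out in turn it ran from 0.08 to 0.63.

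The count table lists 9 Zscan4 rows, and the 3 members held 26.8% of their 1341 counts. Zscan4a (266 counts), Zscan4-ps1 (220), Zscan4e (197) and Zscan4b (178) each held more than Zscan4c and Zscan4f together. Of these rows outside the members, 5 were tested and 0 were called by edgeR in either fit, with 0 by DESeq2 or limma-voom and 0 at an unadjusted p under 0.05, and their log2 fold changes ran from 0.07 for Zscan4-ps1 to 0.70 for Zscan4-ps2. Zscan4a, for example, had a log2 fold change of 0.45 (SE 0.25, edgeR adjusted p = 0.534). The sum over all 9 rows was 5.11, 4.37 and 3.02 CPM in DMSO and 5.67, 5.83 and 4.52 CPM in MB-3. The MB-3 library was the higher one of each letter and MB-3 C lay within the DMSO range. This sum contains the 3 members, so it is not independent of their sum. The sum had a log2 fold change of 0.36 (SE 0.17, 95% interval -0.02 to 0.73, edgeR adjusted p = 0.475). With the letter as a block, a fit chosen after the data were seen, it was called higher at 0.37 (SE 0.12, 95% interval 0.13 to 0.60, edgeR adjusted p = 0.0461). That call was lost without letter B (log2 fold change 0.34, edgeR adjusted p = 0.232) or letter C (0.28, 0.241) in both groups and kept without letter A (0.49, 0.0317). Without DMSO C in the fit with treatment alone the log2 fold change was 0.17.

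**Figure D3:**
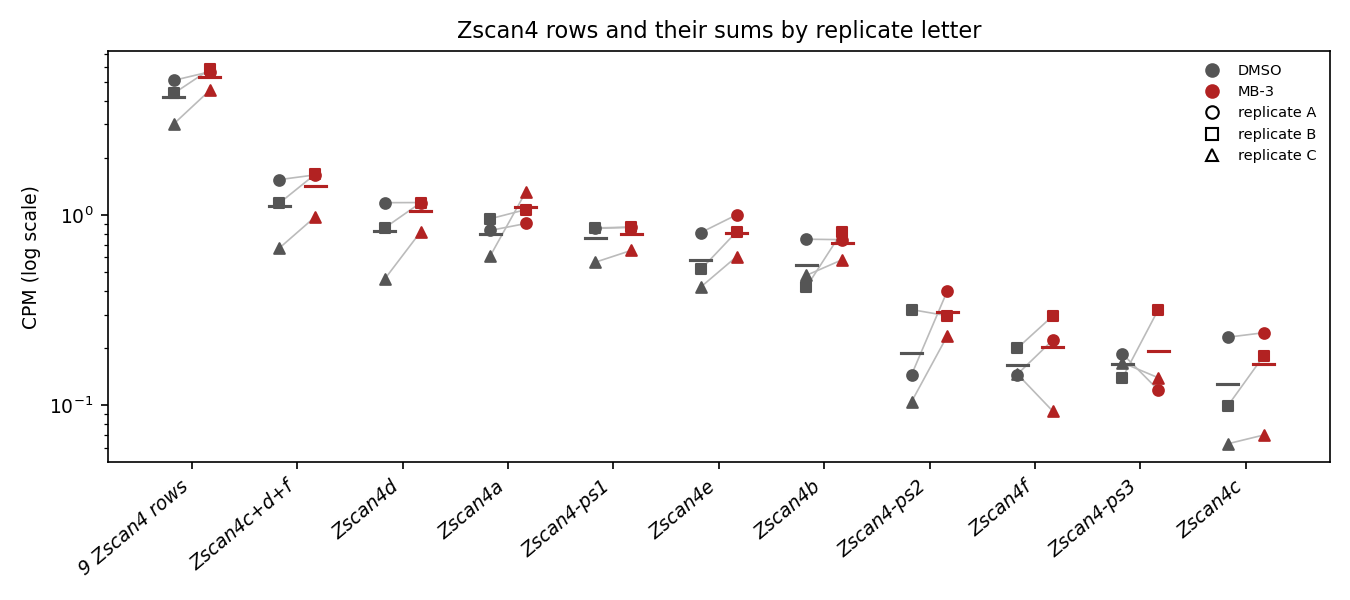
CPM on a log axis of the 9 Zscan4 rows, of their sum and of the sum of the 3 members, in DMSO (grey) and MB-3 (red), with the replicate letter as the symbol, lines joining the libraries of a letter and bars at the means. The sum over 9 rows runs from 3.02 CPM in DMSO C to 5.83 CPM in MB-3 B, and in both sums the MB-3 library is the higher one of every letter. The sum over 9 rows contains the 3 members, so the sums are not independent.

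The remaining markers were close to the limit of detection. Tcstv1, a gene expressed at the 2-cell stage, had 6, 10 and 4 counts in DMSO and 7, 11 and 8 in MB-3, and its neighbour Tcstv3 had 0, 2 and 1 in DMSO and 0, 1 and 3 in MB-3. For the libraries in which Tcstv3 had no count, a count of 0 allows up to 0.0623 CPM in DMSO A and 0.0603 CPM in MB-3 A (3 counts per library, counting error only). The sum of Tcstv1 and Tcstv3 was 6, 12 and 5 counts in DMSO and 7, 12 and 11 in MB-3, with a log2 fold change of 0.48 (SE 0.47, edgeR adjusted p = 0.752, and 0.613 with the block). Summed over the 5 Tcstv rows listed by symbol, the counts were 10, 17 and 9 in DMSO and 9, 14 and 14 in MB-3, with MB-3 higher in 1 of 3 letters. The log2 fold change of that sum was 0.15 (SE 0.41, edgeR adjusted p = 0.925, and 0.881 with the block). It is not a sum over the whole family. A further row, Gm21818, shares 12.2% of the windows of Tcstv1 and 20.4% of those of Tcstv3 and was left out. Zfp352, a zinc finger gene with high transcript levels at the 2-cell stage, had 4, 6 and 4 counts in DMSO and 2, 7 and 4 in MB-3. Its sequence was the most nearly unique of the 9, and it was still under 10 counts in every library. The groups overlapped for each of these genes. With no filter on low counts all 9 members entered the edgeR fit and 0 were called, and how large a change could be detected at these counts was not tested.

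**Figure D4:**
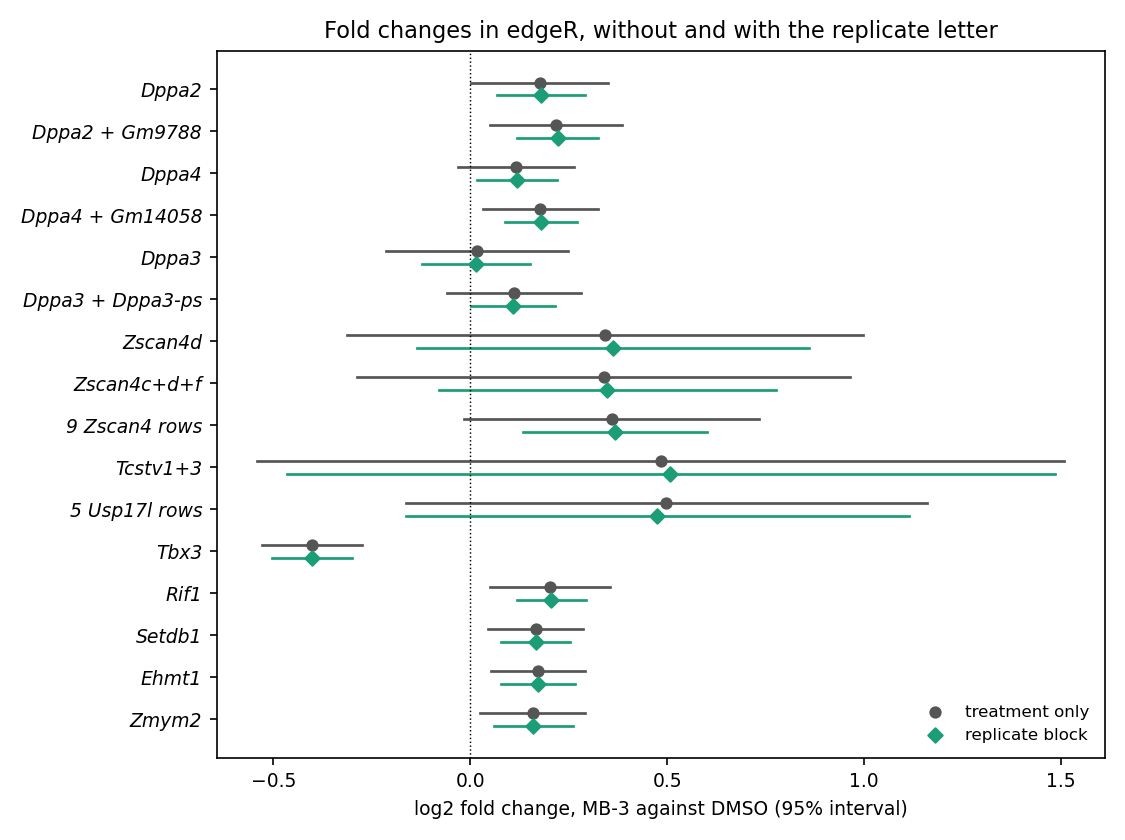
Log2 fold changes of MB-3 against DMSO with 95% intervals from edgeR, with treatment as the only term (grey circles) and with the replicate letter as a block (green diamonds), for tested members, sums, Tbx3 and 4 repressors. The intervals narrow with the block, Dppa2 stays near 0.18 in both fits, and Tbx3 at -0.40 has the lowest value of those plotted.

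Other genes of the 2-cell-like programme were not called either, some of them rare and some at several CPM. Of 26 listed, 24 were in the table and 8 passed the filter, of which edgeR called 0 in either fit. DESeq2 and limma-voom also called 0, and 0 had an unadjusted p under 0.05. Their median log2 fold change was 0.12, with 7 of 8 above 0, beside 49.7% of all genes tested. The most abundant was Gm5039, at 9.33, 9.73 and 10.7 CPM in DMSO and 12.3, 11.0 and 9.40 CPM in MB-3. Of the 24, 11 were under 10 counts in every library. The DMSO and MB-3 libraries overlapped for each of the 8 tested. Among the 16 untested they were apart for 4, all on very few counts. Usp17la, a deubiquitinase of a repeated family, had 3, 2 and 0 counts in DMSO and 7, 6 and 6 in MB-3, and its neighbour Usp17lb had 4, 4 and 2 against 8, 5 and 4, which are apart only after scaling to library size. Tdpoz1, a gene of a cluster of copies on chromosome 3, had 0 counts in the DMSO libraries, which allows up to 0.0629 CPM in DMSO C, and 1 count in each MB-3 library. By contrast, Ubtfl1 lay the other way with 5, 9 and 3 counts in DMSO and 1, 2 and 1 in MB-3. Among all genes tested, 8.22% had non-overlapping groups with MB-3 higher and 7.37% with MB-3 lower, shares that do not cover rows as rare as these 4. The sum of the Usp17l rows had 21, 26 and 19 counts in DMSO and 43, 21 and 24 in MB-3, so that it overlapped between groups (log2 fold change 0.50, edgeR adjusted p = 0.583).

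Genes that are known to drive the state were looked up as well. Dux, listed under the symbol Duxf3, the transcription factor that switches on the 2-cell programme, had 1, 2 and 5 counts in DMSO and 1, 3 and 3 in MB-3, too few to test. Of the other activators, Nelfa and Trp53 were not called and Tbx3, a T-box factor that maintains the naive state and raises Zscan4 in ES cells, was called lower, where 0.105% of genes tested were called lower. Tbx3 (chr5:119670669-119684724, plus strand) stood at 70.3, 66.3 and 66.2 CPM in DMSO and 52.7, 49.2 and 51.7 CPM in MB-3. Every MB-3 library was below every DMSO library by a gap wider than the range of either group. Its log2 fold change was -0.40 (SE 0.06, 95% interval -0.53 to -0.28, edgeR adjusted p = 0.0243, and 1.13e-06 with the block). The call of Tbx3 was lost without DMSO A (edgeR adjusted p = 0.0832), DMSO C (0.0701), MB-3 A (0.135) or MB-3 B (0.165), with the log2 fold change between -0.42 and -0.37. Tbx3 overlaps Tbx3os1 on the opposite strand, and whether the counting used strand is not given in the sources used here, so reads of the pair cannot be told apart.

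The repressors of the state, which keep MERVL and the 2-cell genes silent in ES cells, were all well expressed. All 26 were tested and edgeR with treatment alone called 0, as did DESeq2 and limma-voom, with 4 of 26 at an unadjusted p under 0.05, beside 10.9% of all genes tested. Their log2 fold changes had a median of 0.02, with 19 of 26 above 0, beside 49.7% of all genes tested. Non-overlapping groups with MB-3 higher were found for 5 of 26, beside 8.22% of all genes tested. With the letter as a block 4 of the 26 were called higher and 0 lower, where 3.22% of all genes tested were called higher. They were Rif1, a telomere and replication-timing factor (log2 fold change 0.21, edgeR adjusted p = 0.00214), Setdb1, which methylates lysine 9 of histone H3 at retroviral repeats (0.17, 0.0152), Ehmt1, the partner of G9a (0.17, 0.018), and Zmym2 (0.16, 0.0419). Rif1 stood at 522, 454 and 440 CPM in DMSO and at 568, 526 and 535 CPM in MB-3, without overlap between the groups. Dnmt1, the maintenance DNA methyltransferase, also did not overlap between groups but was called in neither fit (0.10, edgeR adjusted p = 0.544, and 0.18 with the block). Setdb1 overlaps Cers2 and other genes on the opposite strand and is uncertain for that reason.

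Across the 6 libraries, the level of the Zscan4 sum ran with that of other genes as a description only, since the points share library depth and letter. By Pearson's r of log2(CPM + 0.1), the 5 tested genes most like the sum of Zscan4c, Zscan4d and Zscan4f were Gm37767 (r = 0.994), Wdr81 (0.992), Gm13694 (0.992), ENSMUSG00000095692 (0.988) and C330002G04Rik (0.987), and 221 of 20021 genes (1.10%) had r above 0.9. Among the tested Zscan4 rows outside the members, Zscan4-ps1 (0.928) and Zscan4e (0.919) ran closest with the sum and Zscan4a (0.369) least. Dppa2 (0.691) and Dppa4 (0.686) followed the sum more loosely, and Dppa3 ran the other way (-0.699). The genes most like Dppa4 were Eras (0.993), Srrt (0.993), Prr23a3 (0.993), Zfp763 (0.99) and Cacnb3 (0.988), with 317 of 20025 genes (1.58%) above 0.9. Its partner Dppa2 stood at 0.952, and its processed copy Gm14058, whose reads it may share, at 0.961.

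Markers of other cells that such a culture can hold were compared over the same libraries. The 6 fibroblast markers summed to 9.6, 8.0 and 10.7 CPM in DMSO and 6.71, 6.88 and 6.72 CPM in MB-3, with Thy1 the most abundant (40.1% of the sum). Of the 6, 0 were called in edgeR with treatment alone or in limma-voom and 1, Col1a2, in DESeq2, which called 192 of all 20027 genes. An unadjusted p under 0.05 was found for 3 of the 6, against 10.9% of all genes tested, and the same 3, Col1a2, Col1a1 and Pdgfrb, had MB-3 libraries that all lay below those of DMSO, against 7.37% of all genes tested. Pdgfrb had a log2 fold change of -0.48 and was called in neither fit, and Col3a1, Thy1 and Dcn stood at -0.13, -0.11 and -0.05. Both Col1a2 and Col1a1, which encode the chains of type I collagen, were called lower with the block, where 3.9% of all genes tested were called lower, with log2 fold changes of -1.28 (edgeR adjusted p = 0.00012) and -1.33 (0.00226). With treatment alone, both were also called with no filter on low counts (edgeR adjusted p = 0.0152 and 0.0376), where 194 genes were called. The same held without DMSO B (0.00525 and 0.0184), where 520 genes were called, but not with any other single library left out. The 6 extraembryonic endoderm markers summed to 9.22, 8.37 and 11.9 CPM in DMSO and 7.76, 8.33 and 9.35 CPM in MB-3, with 0 called by edgeR in either fit, by DESeq2 or by limma-voom and 0 at an unadjusted p under 0.05. Dab2 made up 81.0% of that sum. The 4 tested endoderm markers all lay below 0, with a median log2 fold change of -0.22, where 49.7% of all genes tested lay above 0. The 6 trophectoderm markers summed to 70.1, 65.2 and 67.8 CPM in DMSO and 74.5, 72.6 and 76.1 CPM in MB-3, of which Tfap2c, which ES cells express too, made up 94.7%, and 0 were called by edgeR with treatment alone, by DESeq2 or by limma-voom, with 2 of the 5 tested at an unadjusted p under 0.05. The 2 markers with an unadjusted p under 0.05 were Tfap2c, higher in MB-3, and Hand1, lower. Every MB-3 library of Tfap2c lay above those of DMSO, as for 8.22% of genes tested. Tfap2c was called higher with the block (log2 fold change 0.17, edgeR adjusted p = 0.0322), where 3.22% of all genes tested were called higher. The 4 other tested markers lay below 0, with log2 fold changes of -0.85 for Hand1, -0.47 for Cdx2, -0.24 for Krt7 and -0.04 for Gata3, so that the list had a median of -0.24 while its sum was higher in MB-3. Elf5, a defining trophectoderm gene, had 1, 1 and 3 counts in DMSO and 0 in the MB-3 libraries, which allows up to 0.07 CPM in MB-3 C. The part of these cells in the values of the 2-cell-like genes was not tested.

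H3K9ac, the mark that Kat2a writes at promoters, could be read at 2 of the 9 loci. Its peaks are deposited as positions on mm9, an older genome build, with no height, and peaks were matched to genes only where a portion of the study's peak annotation names a member. That portion covered chromosomes 1 and 10 to 17 for MB-3 and chromosomes 1, 10 and 11 for DMSO. Among 4673 peaks in MB-3, 1 was assigned to Dppa4 (chr16:48284037-48284428, 392 bp) and 1 to Dppa2 (chr16:48310937-48311216, 280 bp). Both overlapped a peak of the 11724 in DMSO. The DMSO peak at Dppa4 (chr16:48283938-48284544) was 607 bp wide and 64.6% of it was covered by the MB-3 peak, and a second DMSO peak of 411 bp within 1000 bp of it (chr16:48284607-48285017) did not overlap that MB-3 peak. The DMSO peak at Dppa2 (chr16:48310941-48311315) was 375 bp wide and 73.6% covered. Of all MB-3 peaks, 4534 of 4673 overlapped a DMSO peak, and of all DMSO peaks 35.8% overlapped an MB-3 peak. Since loci on chromosome 16 could be found only through an MB-3 peak, a member whose peak was missing after MB-3 could not appear here, and the presence of these peaks in both lists follows from that choice. The MB-3 peak was the narrower one at both loci, and the median width over the lists was 416 bp in MB-3 and 528 bp in DMSO. With 1 list per treatment there is no replicate and no test, and no MB-3 peak was assigned to Tcstv1 or Tcstv3 on chromosome 13, which that portion covered for MB-3 only. Peaks at Zscan4, Zfp352 and Dppa3 were not analysed here.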

How the data were processed

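RNA-seq counts were deposited by the authors as raw counts per Ensembl gene (trimmed single-end reads aligned to mm10 with Bowtie and counted at exons with GenomicAlignments). The versions, read length, use of strand and handling of reads with several matches are not given in the sources used here. Peak positions on mm9 were deposited by the authors for merged duplicates (BWA, MACS2). The table held 0 unused sample columns, and 30540 identifiers were paired with a symbol in GENCODE M21. Of 30677 genes, filterByExpr (minimum count 10) kept 20027. MB-3 was compared with DMSO in edgeR 4.0.16 (R 4.3.3) by the quasi-likelihood test with TMM and treatment as the only term, Benjamini-Hochberg adjustment and a threshold of 0.05. The median SE of a log2 fold change was 0.101. Alternatives used DESeq2 1.42.0, limma-voom (limma 3.58.1), other normalizations and filters, a replicate block, and each library left out. Scripts were tested on simulated data.

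The letters of the labels were checked for pairing. Deviations from the group means, over 20027 genes, correlated at 0.115 (A), 0.287 (B) and 0.232 (C) within a letter, each over 0.1, so the letters were taken to pair the libraries from the data. No 2 libraries of a group agreed within sampling noise (chi-square per gene 8.41 or more). Copies were sought as exact 50-base windows on the GRCm38.p6 chromosomes, a length chosen here. The members, lists and tests were chosen with earlier results of these data known. Named genes were the members and their sums and, in the other lists, called genes, up to 5 whose groups did not overlap, in most lists the most abundant gene, ES cell markers, and the 5 genes most like the Zscan4 sum and Dppa4. Some further genes of the lists were named beside these to give the directions within a list. The processed copies, their sums and the fit of the sum over all Zscan4 rows with the block were added after the data were seen. A permutation test planned for the sums is not given, since 3 against 3 libraries cannot reach the threshold (smallest p 0.1). Figures were drawn with matplotlib 3.10.9.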

Additional observations from a re-analysis of the deposited data

How the results depend on the processing

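Over all genes, 41 were called in edgeR with treatment alone, against 25 with upper-quartile normalization, 24 with no scaling, 194 with no filter, 25 with a minimum count of 30, 192 in DESeq2, 18 in limma-voom, 66 with the robust option and 1425 with the replicate block, and 0 to 520 with 1 library left out (0 without MB-3 A or MB-3 B, 3 without DMSO A, 5 without DMSO C, 62 without MB-3 C and 520 without DMSO B). The number of members called was 0 in each of these except with the replicate block, where it was 1, Dppa2 (log2 fold change 0.18). The pairing of the letters changed no other call of a member or of the sums of members. The Zscan4 sum taken over all 9 rows with the replicate block was called at 0.37. With 1 library left out, the log2 fold change of Dppa2 ran from 0.09 to 0.26, that of Dppa4 from 0.06 to 0.18, that of Zscan4d from 0.06 to 0.66, that of the Zscan4 sum from 0.08 to 0.63, that of the Tcstv sum from 0.27 to 0.93 and that of Dppa3 from -0.11 to 0.10, the one of these that changed sign, while the members below the filter were not compared in this way. The Tcstv sum over the 5 rows listed by symbol was 0.15, below the range of the sum of its 2 members. Dppa4 stood at 39.4 CPM per kb when its longest transcript set the length. The Tcstv sum could not be tested at a minimum count of 30, and DESeq2 gave no adjusted p for it. The causes of these shifts were not tested. The filter on low counts left 5 of the 9 members untested in the main comparison (all 9 were tested without it, with 0 called), and the copies of Zscan4 cannot be told apart where their sequence is shared.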
